A study of Arabidopsis thaliana with 47 samples.

Results

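The genes described here are 42 histone loci of Arabidopsis thaliana, chosen by name as a gene family from a list of core, variant and linker histones, with no rule on measured values, out of 28197 loci listed in the count files. They fall into 10 classes: 8 H4, 5 H3.1, 3 H3.3, 1 CENH3, 4 H2A, 2 H2A.X, 3 H2A.W, 3 H2A.Z, 10 H2B and 3 linker H1 genes. The H4, H3.1, H2A and H2B genes, 27 in all, are called replication-dependent below, the H3.3, CENH3, H2A.X, H2A.W and H2A.Z genes, 12 in all, are called variants, and the 3 H1 genes are kept apart. All 42 were listed in the files and matched the RefSeq gene table, which gave a symbol for 20 of them. The others are named by locus.

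The libraries were poly(A) RNA-seq of wild-type Columbia-0 plants, 47 in all in 12 groups. Protoplasts were released by wall digestion from the first rosette leaves of 23-day-old plants, set in sodium alginate gel and kept in the dark in liquid medium with 1 mg/L of the synthetic auxin 2,4-D and 176 µg/L of the cytokinin-like thidiazuron, so every cultured group shared both agents except the group without 2,4-D. The replicate numbers split the series into 3 experiments that were fitted separately. Replicates 1 to 3 held intact leaves, freshly isolated protoplasts (Day 0), and 14-day cultures with or without MB-3, an inhibitor of histone acetyltransferases (n = 3 each). Replicates 4 to 8 held Day 0 (n = 5), a Day 2 control, and Day 4 and Day 6 cultures as control, with MB-3, or with yucasin, an inhibitor of YUCCA enzymes of auxin synthesis (n = 3 each). Of these, the Day 2 and Day 4 libraries were replicates 4 to 6 and the Day 6 libraries were replicates 6 to 8. Replicates 9 to 11 held Day 0, a Day 4 control and a Day 4 culture without 2,4-D (n = 3 each). Each library is a bulk sample of a protoplast culture in which, per the study, some cells divide and others do not, and the labels do not say whether replicates came from separate cultures, so p-values measure the spread between these samples.

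Histones package DNA into nucleosomes, in which DNA is wound around a core of H2A, H2B, H3 and H4, while H1 binds the linker DNA between cores. The replication-dependent genes are known for high transcription in S phase, when new chromatin must be assembled behind the replication fork, and H3.1 is placed there by the chaperone CAF-1. H3.3 is made throughout the cell cycle and is placed on transcribed genes by other chaperones, HIRA among them. H2A.Z marks the start of genes and is placed by the SWR1 complex, H2A.W is a plant variant of heterochromatin, H2A.X is the form phosphorylated at DNA breaks, and CENH3 replaces H3 at centromeres. Mature leaf mesophyll cells do not normally divide, and protoplasts re-enter the cell cycle in culture.

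The H3.1 and H3.3 genes are shown first at the level of sequence, because the results turn on telling their reads apart. The 5 H3.1 genes encode 1 protein sequence, the 3 H3.3 genes encode another, and the 8 H4 genes encode 1. Between the H3.1 gene AT5G65360 and the H3.3 gene AT4G40040 a translation of the RefSeq coding sequences differed by A31T, F41Y, S87H and A90L, counted from the first residue after the initiator methionine and with the H3.1 residue first. The lines below are coding bases 88 to 132 of 4 of these genes, from RefSeq TAIR10.1, read 5′ to 3′ on the coding strand, which is the minus strand for all 4, with the codons for residues 31 and 41 in capitals.
AT5G65360, H3.1, gene at chr5:26119859-26120581: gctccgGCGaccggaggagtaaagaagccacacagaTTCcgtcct
AT5G10390, H3.1, gene at chr5:3268847-3269594: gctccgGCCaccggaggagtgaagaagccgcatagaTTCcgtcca
AT4G40040, H3.3, gene at chr4:18557149-18558945: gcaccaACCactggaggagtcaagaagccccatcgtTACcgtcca
AT5G10980, H3.3, gene at chr5:3472405-3473570: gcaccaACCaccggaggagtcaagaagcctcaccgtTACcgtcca

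Both classes also differed at synonymous positions. Coding identity was 80.3% to 89.5% among the H3.1 genes, 78.6% to 88.8% among the H3.3 genes and 74.0% to 80.3% over the 15 pairs between them. The longest stretch that an H3.1 and an H3.3 gene shared without a mismatch was 12 to 26 bases. Within classes the coding sequences of some genes were closer, up to 98.1% for H4 and 90.1% for H2B. The H3.1 genes AT3G27360 and AT5G10400, at 89.5%, shared 59 bases without a mismatch. Values of single H4, H2B and H3.1 genes therefore carry the uncertainty that reads of near-identical copies may have been split between them. Class sums are given for this reason as well. Of the 42 members 9 overlap another annotated gene, 8 of them on the opposite strand and 1 on the same strand.

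The next lines show 200 bases before the annotated transcript start of the 4 members of highest mean CPM (defined below) over the 47 libraries among those called higher at Day 6 and lower with both inhibitors at that day, from RefSeq TAIR10.1 and on the strand of the gene. The windows were searched on both strands for motifs known from plant histone promoters (the octamer CGCGGATC, the hexamer ACGTCA and the nonamer CATCCAACG), for E2F sites (TTTCCCGC, TTTGGCGC, TTTGCCGC or TTTCGCGC), named for the E2F factors of the G1/S transition, and for AACGG, the core bound by MYB3R factors. Capitals mark octamer, hexamer and E2F matches.
HTB9, H2B, chr3:16898014-16898213, minus strand: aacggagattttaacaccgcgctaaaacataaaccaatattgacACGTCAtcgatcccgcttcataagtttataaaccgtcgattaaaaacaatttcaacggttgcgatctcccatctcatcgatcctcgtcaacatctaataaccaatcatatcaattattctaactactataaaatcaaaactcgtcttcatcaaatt
HTB2, H2B, chr5:7652715-7652914, minus strand: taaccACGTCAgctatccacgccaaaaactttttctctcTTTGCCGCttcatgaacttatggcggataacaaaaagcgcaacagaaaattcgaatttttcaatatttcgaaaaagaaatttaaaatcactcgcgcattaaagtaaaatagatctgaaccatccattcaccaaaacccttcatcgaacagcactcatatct
AT5G59690, H4, chr5:24051274-24051473, plus strand: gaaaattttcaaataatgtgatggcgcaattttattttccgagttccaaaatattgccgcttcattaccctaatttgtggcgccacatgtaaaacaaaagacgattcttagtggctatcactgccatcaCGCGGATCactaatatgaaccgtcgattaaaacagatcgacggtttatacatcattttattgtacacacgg
AT5G65360, H3.1, chr5:26120582-26120781, minus strand: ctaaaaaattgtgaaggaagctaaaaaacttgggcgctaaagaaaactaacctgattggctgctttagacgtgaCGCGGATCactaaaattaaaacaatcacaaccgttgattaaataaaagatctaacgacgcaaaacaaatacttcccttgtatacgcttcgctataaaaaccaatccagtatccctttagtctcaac

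The octamer was found in 10 of the 42 member windows and in 0.113% of the 27443 windows of all genes, which is 31 windows. It stood in 3 of 5 H3.1, 2 of 8 H4 and 2 of 4 H2A windows, and also in those of HTA6, the H3.3 gene AT4G40040 and the linker gene AT1G06760. The hexamer was found in 11 member windows, of which 8 belonged to the 10 H2B genes, against 6.58% of all windows. An E2F match stood in 1 member window, HTB2, against 1.24% of all windows, AACGG in 20 against 17.6%, and the nonamer in 0 against 0.138%. These matches describe the letters in the windows only.

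Mapped reads numbered 4.34 M in the shallowest library, 19.13 M in the deepest and 8.46 M at the median (M, 1000000 reads), so that 3 counts, taken as the floor, equal 0.15 to 0.67 counts per 1000000 (CPM). The filter on low counts passed all 42 members in replicates 1 to 3 and 4 to 8 and 41 of them, without HTR12, in replicates 9 to 11. A set of 2176 loci was silent in replicates 4 to 11, and 6 libraries of replicates 1 to 3 (all 3 leaf libraries, Day 0 replicate 3, and Day 14 control replicates 1 and 3) showed counts at 29.3% to 83.2% of them, against 0.7% to 9.1% in the other 6 libraries. The part of such reads in the results of that experiment was not tested. Levels below are CPM on library sizes adjusted by TMM, edgeR's trimmed-mean scaling. They are not corrected for gene length, so they are compared between groups and not between genes. For each class the gene shown library by library is the one with the highest mean CPM over the 47 libraries, which need not be the highest in each group. In bulk libraries fewer cells of a type and less RNA per cell cannot be told apart.

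At Day 6, 16 of the 27 replication-dependent histone genes were called higher than at Day 0, and the others differed by -1.2 to 1.8 on the log2 scale. The 42 genes together gave 1256 to 1729 CPM in the Day 0 libraries of replicates 4 to 8, and 3160 to 3449 CPM after 6 days as control. Against Day 0 a member was called when it changed more than 4-fold with p and adjusted p under 0.01. At Day 2, 9 members were called higher and 0 lower, beside 18.5% and 4.78% of all genes tested. At Day 4 the counts were 20 and 0 beside 25.3% and 13.1%, and at Day 6 they were 22 and 0 beside 27.5% and 16.3%. The counts of 0 are from edgeR with the 4-fold limit, and DESeq2 also gave 0. At an unadjusted p under 0.05 and no fold limit 3, 7 and 7 members were lower at Day 2, 4 and 6. The median log2 fold change at Day 6 was 2.15 over the 27 replication-dependent genes, 1.58 over the 12 variants and 0.34 over all genes.

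**Figure D1:**
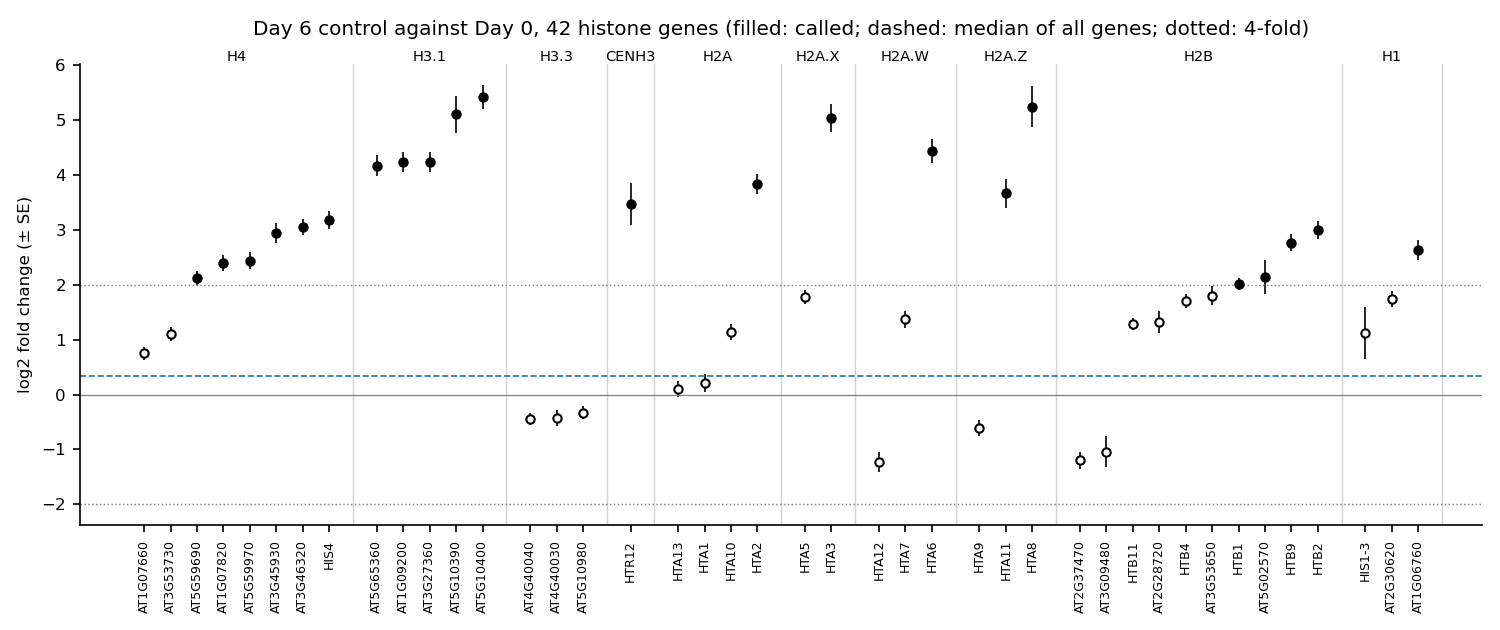
Log2 fold change (± SE) of each of the 42 histone genes in the Day 6 control against Day 0, ordered by class, with filled points for called genes, a dashed line at the median of all genes (0.34) and dotted lines at 4-fold. All 5 H3.1 genes lie above 4-fold, the 3 H3.3 genes lie below 0, and the H2A, H2A.W, H2A.Z and H2B classes are each spread over both sides of the dashed line.

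Steps within the culture were called at adjusted p under 0.05. From Day 2 to Day 4, 27 members rose and 5 fell, beside 29.1% and 30.9% of all genes. All 8 H4 and all 5 H3.1 genes were among those that rose, and those that fell were AT4G40040, HTA12, AT2G37470, AT3G53650 and HIS1-3, named here after their values were seen. From Day 4 to Day 6, between which only replicate 6 was shared, 14 rose and 1 fell, beside 15.1% and 16.8%. This last count was the less stable, since 6 of the 15 calls held without each library in turn.

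At Day 4 and at Day 6 all 5 H3.1 genes were called higher. AT5G65360, of highest mean CPM in the class, stood at 3.38, 7.34, 7.46, 6.82 and 7.01 CPM in the 5 Day 0 libraries and at 23.5, 16.0 and 32.2 CPM at Day 2. It reached 92.5, 90.0 and 104 CPM at Day 4 and 120.1, 108 and 126 CPM at Day 6, a log2 fold change of 4.17 ± 0.19 (SE) over Day 0 (edgeR quasi-likelihood test, adjusted p = 1.07e-15). No library of Day 2, 4 or 6 overlapped Day 0. The other 4 H3.1 genes rose by 4.24 to 5.43 on the log2 scale at Day 6, and AT3G27360, AT5G10390 and AT5G10400 were called already at Day 2, at 2.17 to 3.1. Summed over the class, H3.1 stood at 17.1 ± 2.54 CPM (SD, n = 5) at Day 0 and at 375 ± 22.9 CPM (n = 3) in the Day 6 control.

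H3.3 did not follow. AT4G40040, the H3.3 gene shown by library, stood at 230.1, 319, 338, 328 and 282 CPM at Day 0, at 289.7, 305 and 287 CPM at Day 2, at 239.9, 252 and 232 CPM at Day 4 and at 229, 221 and 212 CPM at Day 6. All Day 6 libraries were below all Day 0 libraries, by 0.44 on the log2 scale. None of the 3 H3.3 genes was called at Day 4 or 6, where their log2 fold changes lay between -0.29 and -0.44, and this direction turned to 0.67 to 0.78 when libraries were scaled to total counts, which moved the median of all genes by -1.03 (Day 0 against leaf) to 1.3 (Day 14 against Day 0) across the comparisons. AT3G27360 overlaps the neighbouring gene AT3G27380 by 328 bases on the same strand, and its reads cannot be assigned with certainty.

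The ratio of summed H3.1 to summed H3.3 within a library does not depend on the scaling between libraries. Its log2 value was -5.16, -5.12, -5.34, -5.50 and -5.39 at Day 0, and it was -3.32, -3.74 and -2.68 at Day 2. It rose to -0.94, -0.99 and -0.69 at Day 4 and to -0.44, -0.59 and -0.36 at Day 6, a mean difference from Day 0 of 4.84. The ratio is not corrected for length and is a score over chosen genes, so its change is given without a test, and in all 18 comparisons of groups within an experiment the libraries did not overlap.

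**Figure D2:**
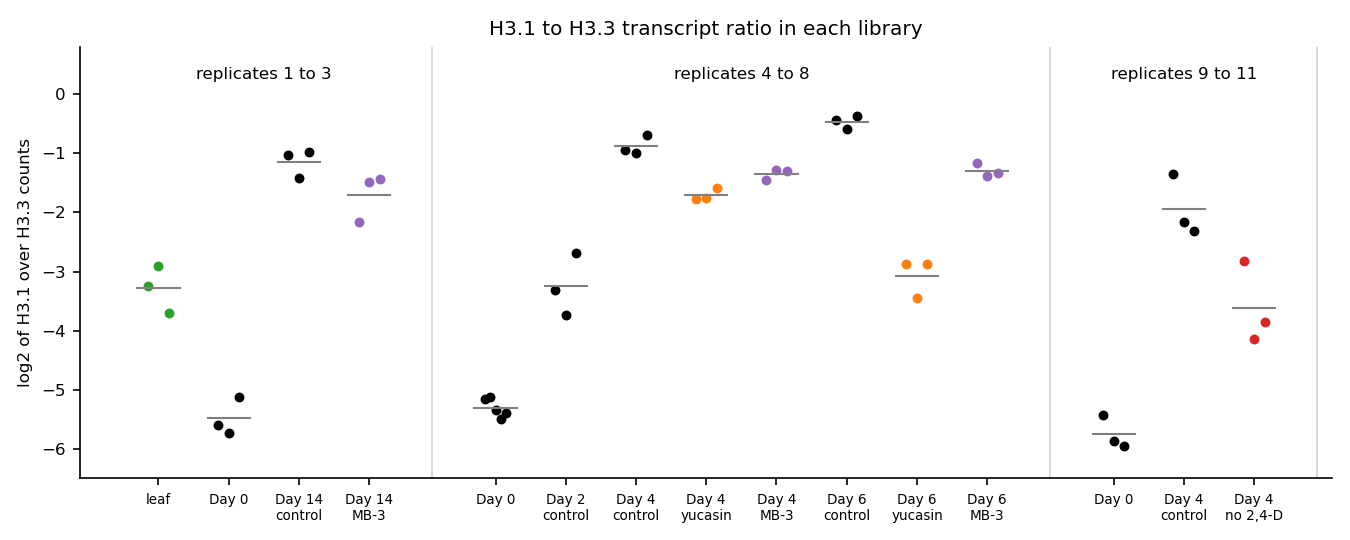
Log2 of summed H3.1 CPM over summed H3.3 CPM in each of the 47 libraries, by group, in 3 blocks by replicate numbers, with a grey line at the group mean. The ratio is lowest at Day 0 in every experiment (means -5.49, -5.30 and -5.75), highest in the Day 6 control (-0.46), and lower with yucasin at Day 6 (-3.07) than with MB-3 at Day 6 (-1.29).

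H4, the partner of H3 in the nucleosome core, rose in the same cultures. The summed H4 level was 118 ± 14.9 CPM (SD, n = 5) at Day 0 and 468 ± 29.1 CPM (n = 3) at Day 6. Of 8 genes 6 were called higher at Day 6, with log2 fold changes from 2.13 for AT5G59690 to 3.18 for HIS4. AT3G53730, the H4 gene shown by library, had the smallest fold change but for AT1G07660. It stood at 34.5, 31.1, 29.9, 31.2 and 27.5 CPM at Day 0, at 38.6, 21.4 and 34.9 CPM at Day 2, at 60.7, 62.4 and 70.9 CPM at Day 4 and at 67.2, 60.1 and 70.8 CPM at Day 6. Day 4 and Day 6 lay above Day 0 in every library, by 1.10 ± 0.13 on the log2 scale at Day 6, and Day 2 overlapped Day 0. AT1G07660 differed by 0.75 (adjusted p = 2.99e-06).

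H2B genes, which pair with H2A, were mixed. HTB2 (3.00), HTB9 (2.77), AT5G02570 (2.15) and HTB1 (2.02) were called higher at Day 6, the last of them not without replicate 8. HTB4, the H2B gene shown by library, stood at 101, 127, 94.7, 114 and 113 CPM at Day 0, at 150.4, 122 and 173 CPM at Day 2, at 256, 233 and 311 CPM at Day 4 and at 388, 343 and 343 CPM at Day 6. Day 4 and Day 6 were above every Day 0 library, by 1.71 ± 0.13 on the log2 scale at Day 6, which is under 4-fold. AT2G37470 and AT3G09480 went against the class, named after their values were seen, with log2 fold changes of -1.2 ± 0.15 and -1.04 ± 0.28 that were under 4-fold. On total counts the value of AT3G09480 was 0.07. That scaling moved the median of all genes by 1.11, close to the size of the fall of AT2G37470. AT2G37470 stood at 73.7 to 104 CPM at Day 0 and at 42.2, 37.5 and 41.7 CPM at Day 6.

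Within canonical H2A a single gene carried the call. HTA2 rose by 3.84 on the log2 scale at Day 6, whereas HTA10, HTA13 and HTA1 differed by 1.14, 0.10 and 0.21. HTA10 stood at 30.2, 52.3, 43.6, 49.1 and 47.2 CPM at Day 0, at 52.4, 47.1 and 48.0 CPM at Day 2, at 65.4, 58.4 and 78.3 CPM at Day 4 and at 101, 93.6 and 101 CPM at Day 6. Day 6 was above all Day 0 libraries (adjusted p = 3.65e-08) by less than 4-fold, and Day 2 was within their range but for 1 library.

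The genes of an H2A variant class differed in how far they changed, and both H2A.X genes were higher at Day 6. Of the H2A.X genes, HTA3 was at 1.69, 2.80, 2.09, 3.53 and 4.09 CPM at Day 0 and at 95.3, 88.3 and 107 CPM at Day 6, a log2 fold change of 5.04 ± 0.26. HTA5 was at 24.6, 41.3, 36.1, 44.0 and 37.8 CPM at Day 0, at 53.0, 45.3 and 53.1 CPM at Day 2, at 84.5, 77.3 and 97.2 CPM at Day 4 and at 135, 119.8 and 126 CPM at Day 6. All Day 6 libraries of HTA5 lay above Day 0, by 1.78 ± 0.13 (adjusted p = 7.83e-12), a change under 4-fold.

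Among the H2A.W genes of heterochromatin, HTA6 rose by 4.44 ± 0.21 and stood at 83.0, 80.2 and 85.7 CPM at Day 6 against 2.41 to 5.82 CPM at Day 0. HTA7 stood at 21.3, 28.0, 30.5, 30.3 and 30.2 CPM at Day 0, at 36.0, 38.0 and 29.5 CPM at Day 2, at 42.5, 42.5 and 53.4 CPM at Day 4 and at 81.3, 64.0 and 73.4 CPM at Day 6. Day 4 and Day 6 did not overlap Day 0, and the Day 6 difference was 1.37 ± 0.15. HTA12 differed in the other direction. It stood at 21.5, 13.4, 12.7, 13.3 and 14.7 CPM at Day 0 and at 5.87, 6.78 and 6.43 CPM at Day 6, a log2 fold change of -1.23 ± 0.18 (adjusted p = 9.43e-07) that did not reach 4-fold. Its sign held on total counts, but that scaling moved the median of all genes by 1.11, close to the size of this fall. HTA12 lies antisense to the H2B gene AT5G02570 over 522 bases. The library kit keeps strand, but whether the counting used it is not given in the sources used here, so both genes are uncertain. The same limit applies to the other members that overlap a gene on the opposite strand. Among these the longest overlaps are those of AT1G06760 (484 bases), HTA3 (259 and 240 bases) and HTB9 (249 bases).

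In H2A.Z, HTA9 was not called and the other genes were. HTA9 stood at 60.1, 123, 113, 116 and 106 CPM at Day 0, at 52.9, 62.7 and 56.9 CPM at Day 2, at 59.9, 55.5 and 66.0 CPM at Day 4 and at 69.2, 68.9 and 66.8 CPM at Day 6. Day 0 replicate 4 stood apart from the other 4 Day 0 libraries and within the range of the cultures, and the Day 6 change of -0.61 ± 0.15 became 0.51 on total counts. HTA8 had 12 counts in the 5 Day 0 libraries, none above 3, and 578 counts in the 3 Day 6 libraries, a ratio of 39.3 (95% counting interval 22.3 to 76.5). HTA11 rose by 3.67 ± 0.26, from 0.724 to 2.54 CPM at Day 0 to 23.1, 20.8 and 23.1 CPM at Day 6. The summed H2A.Z level was 106 ± 25.6 CPM (SD, n = 5) at Day 0 and 105 ± 3.02 CPM (n = 3) at Day 6, so with TMM scaling the rise of HTA8 and HTA11 did not show in the class sum. On total counts HTA9 was higher as well, so the flat sum rested on TMM scaling.

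**Figure D3:**
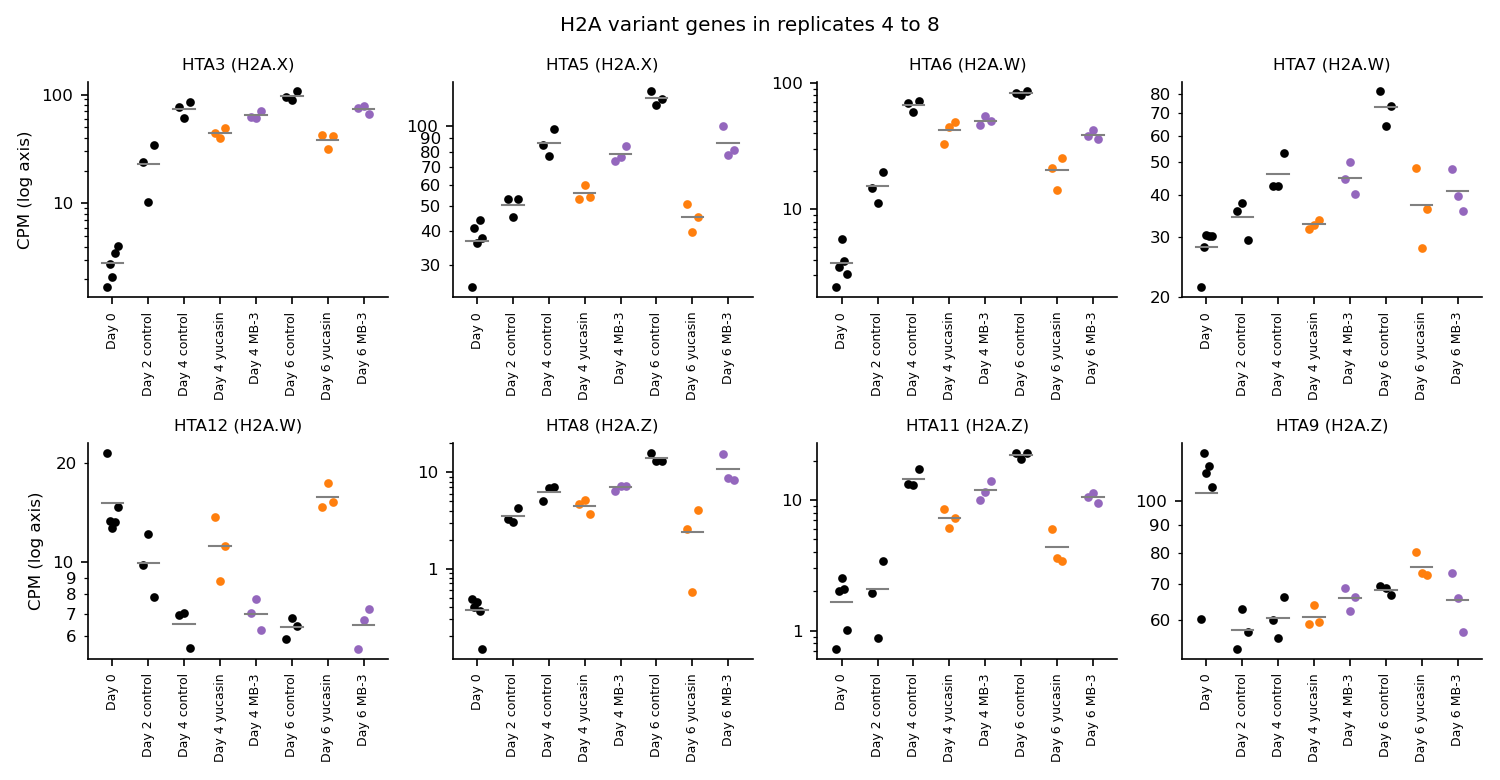
CPM on a log axis of the 8 H2A.X, H2A.W and H2A.Z genes in every library of replicates 4 to 8, by group. HTA3, HTA6, HTA8 and HTA11 start low at Day 0 and are high in the Day 6 control, HTA9 stays between 52.9 and 123 CPM in all groups, and HTA12 is lower in the Day 6 control (5.87 to 6.78 CPM) than with yucasin (14.7 to 17.4 CPM).

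HTR12 encodes CENH3, on which the kinetochore is built. It had 10 counts over the 5 Day 0 libraries (0, 0.267, 0.448, 0.365 and 0.292 CPM) and 0.503, 0.586 and 0.612 CPM at Day 2, a ratio of 1.88 (95% counting interval 0.813 to 4.60). It was at 2.72, 2.43 and 2.72 CPM at Day 4 and at 2.75, 3.25 and 4.26 CPM at Day 6, ratios to Day 0 of 8.72 (4.58 to 18.7) and 11.4 (6.03 to 24.3). The Day 4 and Day 6 libraries lay above all those of Day 0 and Day 2, and the intervals cover counting error only.

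The main linker histones reached their level in culture by Day 2. AT1G06760 was at 27.3, 40.5, 44.2, 48.5 and 29.2 CPM at Day 0 and at 264, 138 and 246 CPM at Day 2, a log2 fold change of 2.50 ± 0.18. It then stood at 236, 207 and 262 CPM at Day 4 and at 252, 233 and 226 CPM at Day 6, so that the Day 6 change over Day 0 (2.64 ± 0.18) was close to that of Day 2. AT2G30620 was at 29.9, 34.8, 30.8, 35.2 and 25.0 CPM at Day 0, at 133, 69.9 and 115 CPM at Day 2, at 121, 125 and 121 CPM at Day 4 and at 113, 94.6 and 104 CPM at Day 6. Its change of 1.77 ± 0.14 at Day 2 and 1.74 at Day 6 was under 4-fold, with no overlap with Day 0. Neither gene was called between Day 2 and Day 4 or between Day 4 and Day 6, with log2 differences of -0.23 to 0.2.

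HIS1-3, a shorter H1 form known for induction by drought and abscisic acid, followed another course. It stood at 0, 0.668, 0.149, 1.10 and 0.876 CPM at Day 0 and at 16.4, 16.4 and 12.8 CPM at Day 2, a log2 fold change of 4.58 ± 0.35. It fell to 6.57, 6.07 and 2.58 CPM at Day 4 and to 1.19, 1.27 and 1.64 CPM at Day 6, by 1.58 and 1.88 on the log2 scale in the successive steps. At Day 6 it was above all Day 0 libraries with a difference of 1.12 ± 0.47 (adjusted p = 0.0306).

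**Figure D4:**
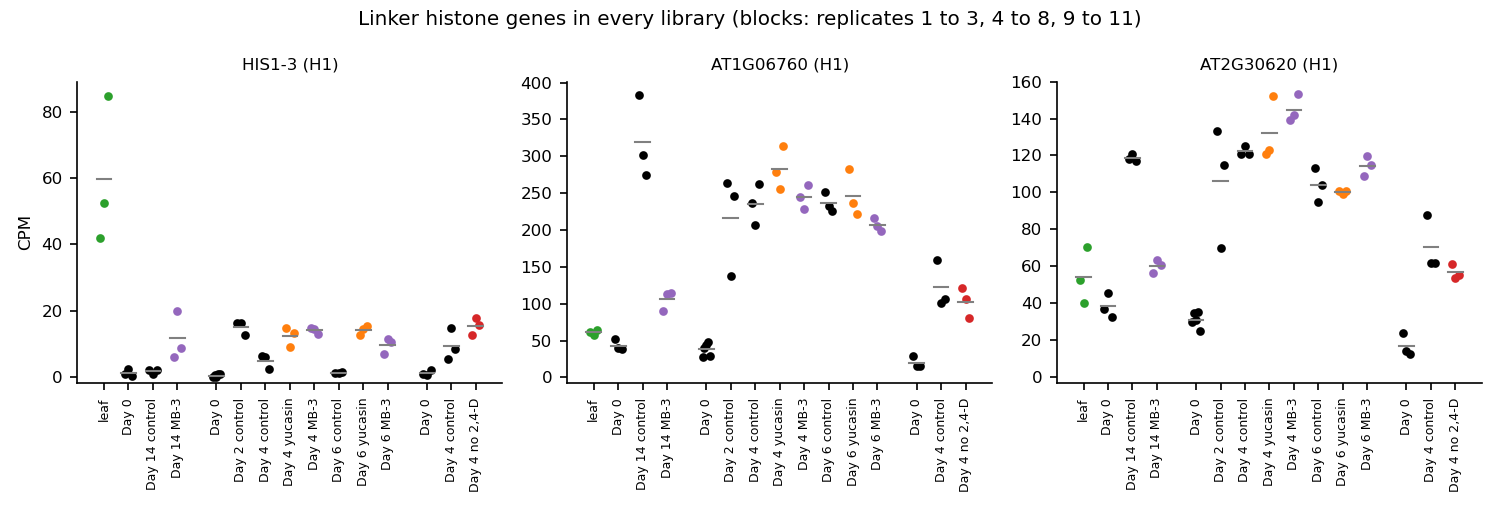
CPM of the 3 linker histone genes HIS1-3, AT1G06760 and AT2G30620 in all 47 libraries, by group, on a linear axis. AT1G06760 and AT2G30620 are higher in every culture of Day 2 to Day 6 than at Day 0, and HIS1-3 is highest in leaf (41.9 to 84.8 CPM) and higher with either inhibitor than in the Day 6 control (1.19 to 1.64 CPM).

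Day 6 cultures with yucasin were compared with the Day 6 control to ask which genes differed with this inhibitor. With yucasin 31 members were lower and 5 higher (adjusted p under 0.05), beside 28.8% and 30.1% of all genes, and 34 of these 36 calls held without each library in turn. Of the 27 replication-dependent genes 24 were lower and 0 higher by edgeR, and the median log2 fold change was -1.18, against 0.01 over all genes. The 3 not called were HTA1, AT5G02570 and AT2G28720 (0.01, -0.15 and 0.41). The 5 members that rose were the 3 H3.3 genes, HTA12 and HIS1-3. Total-count scaling moved the median of all genes by -0.49 in this comparison, so the size of these rises, above all those of the H3.3 genes, depended on the scaling.

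All 5 H3.1 genes fell with yucasin, from 1.73 ± 0.20 on the log2 scale for AT5G65360 (adjusted p = 9.02e-08) to 3.25 ± 0.33 for AT5G10390. AT5G65360 stood at 41.6, 28.7 and 36.5 CPM with yucasin, below all Day 6 control libraries and above all Day 0 libraries. AT4G40040 of H3.3 stood at 378, 373 and 348 CPM, above all control libraries, a difference of 0.73 ± 0.12 (adjusted p = 1.87e-05). The third H3.3 gene, AT5G10980, was at 0.33 (adjusted p = 0.0443), a call that was lost without replicate 6, 7 or 8 and that turned to -0.16 (adjusted p = 0.281) on total counts. The log2 ratio of H3.1 to H3.3 was -2.88, -3.45 and -2.88, lower than in the control by a mean of 2.61, within the range of the Day 2 control.

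In the other classes AT3G53730 of H4 fell to 42.1, 42.1 and 40.9 CPM (-0.66, adjusted p = 5.39e-04), and the 8 H4 genes fell by 0.42 to 1.77. HTB4 fell to 204, 161 and 173 CPM (-1.0 ± 0.15, adjusted p = 4.89e-06) and HTA10 to 70.1, 55.3 and 48.6 CPM (-0.76, adjusted p = 2.12e-04). None of these overlapped the control. HTA5 was at 50.6, 39.9 and 45.5 CPM (-1.48, adjusted p = 2.76e-08), HTA7 at 48.1, 27.8 and 36.4 CPM (-0.96, adjusted p = 3.55e-05) and HTR12 at 1.11, 1.01 and 1.14 CPM (-1.64 ± 0.35, adjusted p = 3.24e-04).

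The members within a variant class again divided. HTA8 (-2.52 ± 0.32) and HTA11 (-2.35) fell while HTA9, at 80.2, 73.2 and 72.8 CPM, differed by 0.14. HTA6 fell by 2.03 and HTA12 rose by 1.31 ± 0.20 (adjusted p = 4.49e-06) to 14.7, 17.4 and 15.3 CPM, within the range of Day 0. HIS1-3 rose by 3.38 ± 0.33 (adjusted p = 1.14e-08) to 12.7, 14.7 and 15.6 CPM. AT1G06760, at 283, 236 and 221 CPM, and AT2G30620, at 101, 99.3 and 101 CPM, overlapped the control, with log2 differences of 0.06 (adjusted p = 0.821) and -0.05 (adjusted p = 0.808).

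MB-3 at Day 6 gave a smaller set of differences from the control. With MB-3 24 members were lower and 1 higher, beside 13.2% and 14.2% of all genes, and 15 of the 25 calls held without each library in turn. Of the replication-dependent genes 19 of 27 were lower and 0 higher, with a median log2 fold change of -0.63, and 5 of the 12 variants were lower. All 5 H3.1 genes were lower, by 0.63 to 1.13 on the log2 scale. AT5G65360 stood at 80.0, 70.8 and 69.1 CPM, below the control and above yucasin in every library (-0.69 against control, adjusted p = 0.00800). The ratio of H3.1 to H3.3 was -1.16, -1.38 and -1.34, lower than in the control by 0.83, and 2 of the 5 H3.1 calls held without each library in turn.

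AT4G40040 was at 258, 263 and 258 CPM with MB-3 (0.23), a difference not called although its libraries did not overlap the control, and none of the 3 H3.3 genes was called. AT3G53730 was at 48.0, 58.5 and 54.0 CPM (-0.30, adjusted p = 0.134). HTB4 was at 293, 249 and 225 CPM (-0.49, adjusted p = 0.0162), HTA10 at 70.8, 62.0 and 60.4 CPM (-0.61, adjusted p = 0.00451), HTA7 at 47.8, 39.8 and 35.9 CPM (-0.83, adjusted p = 5.92e-04) and HTA5 at 99.9, 77.9 and 81.2 CPM (-0.56). All of these were below the control in every library. HTR12 was at 1.93, 2.12 and 0.871 CPM (-1.13 ± 0.32, adjusted p = 0.0107), a call lost without replicate 8, without which 15 members in all were called in place of 25.

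HIS1-3 was the single member higher with MB-3 at Day 6, at 7.08, 11.4 and 10.6 CPM (2.83 ± 0.34, adjusted p = 1.03e-06). Of the other linker genes AT1G06760 was at 216, 206 and 198 CPM, just below the control in every library and not called (-0.2, adjusted p = 0.504). AT2G30620, at 109, 119.5 and 115 CPM, overlapped the control (0.14, adjusted p = 0.556). HTA9 was at 73.2, 65.9 and 56.9 CPM, and HTA12, which rose with yucasin, differed by 0.04.

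**Figure D5:**
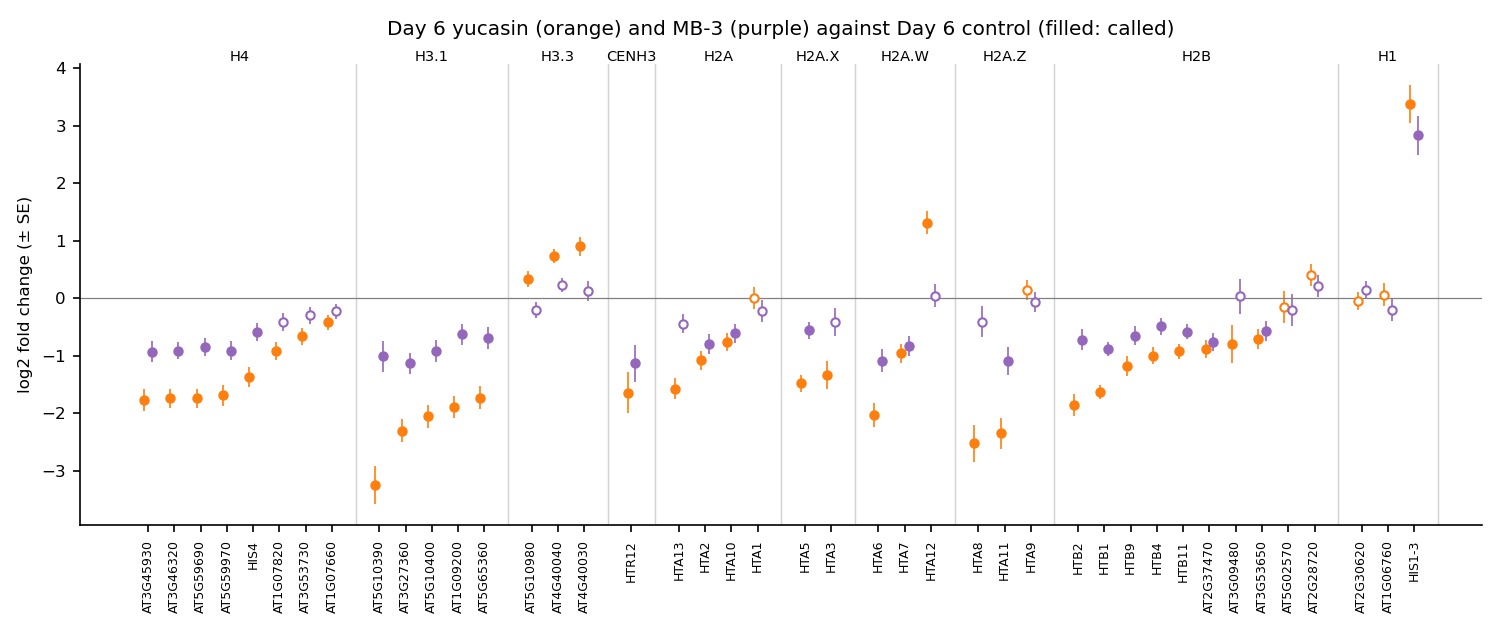
Log2 fold change of each of the 42 histone genes at Day 6 with yucasin (orange) and with MB-3 (purple) against the Day 6 control, ordered by class, with filled points for called genes. The H3.1 genes are lower with both agents and lower with yucasin (-1.73 to -3.25) than with MB-3 (-0.63 to -1.13), and HIS1-3 is higher with both (3.38 and 2.83).

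The inhibitors were also compared with each other. At Day 6, 22 members were higher with MB-3 than with yucasin and 4 lower, beside 19.1% and 22.1% of all genes, or 31 and 1 when scaled to total counts (39.8% and 11.8% of all genes), and 18 of the 26 calls held without each library. All 5 H3.1 genes were higher with MB-3, by 1.04 to 2.25 on the log2 scale, and those lower were the 3 H3.3 genes and HTA12 (-1.27). At Day 4 the counts were 2 and 1, beside 7.24% and 8.55%, or 8 and 1 on total counts (9.90% and 6.24% of all genes). The replicate numbers of these groups deviated together, and with the replicate number as a block 7 members were called at Day 4. None of the 3 calls, AT5G10390 (0.92), HTA5 (0.49) and HTA12 (-0.67), held without each library in turn.

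Differences at Day 4 were smaller. With yucasin 15 members were lower and 3 higher, each beside 11.8% of all genes, and 3 of the 18 calls held without each library. AT5G65360 was at 64.3, 65.1 and 80.8 CPM (-0.45, not called), below the control in every library, and of H3.1 AT1G09200 (-0.65), AT3G27360 (-0.72) and AT5G10390 (-1.06) were called. Those higher were AT4G40040 (0.36), HTA12 (0.78) and HIS1-3 (1.29, adjusted p = 0.00173). Of the genes shown by library, AT4G40040 stood at 294, 316 and 319 CPM, AT3G53730 at 58.4, 56.0 and 61.2 CPM, HTB4 at 209, 191 and 221 CPM, HTA10 at 49.3, 45.1 and 56.5 CPM, HTA5 at 52.8, 60.1 and 54.0 CPM, HTA7 at 31.8, 32.7 and 33.8 CPM and HTA9 at 58.9, 64.0 and 59.4 CPM. HTA5, HTA7, HTA10 and HTB4 were below the Day 4 control in every library.

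With MB-3 at Day 4 a single member, HIS1-3, was higher (14.9, 14.6 and 13.0 CPM, 1.48 ± 0.28, adjusted p = 0.00148) and 0 were lower by edgeR and by DESeq2 (2 at an unadjusted p under 0.05), beside 2.64% and 4.55% of all genes. With the replicate number as a block 2 members were called in all, as with DESeq2. AT5G65360 was at 72.0, 81.4 and 85.5 CPM and AT4G40040 at 292, 300.5 and 307 CPM, below and above the control in every library, and the H3.1 genes differed by -0.15 to -0.42 without a call. AT3G53730 stood at 54.4, 66.5 and 69.0 CPM, HTB4 at 237, 236 and 263 CPM, HTA10 at 54.3, 57.5 and 55.5 CPM, HTA5 at 73.6, 76.4 and 84.1 CPM, HTA7 at 44.7, 50.3 and 40.3 CPM and HTA9 at 68.8, 62.4 and 66.1 CPM.

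Whether an effect differed between the days was tested as an interaction. The Day 4 libraries were replicates 4 to 6 and the Day 6 libraries replicates 6 to 8. A difference between days therefore cannot be told apart from one between these sets of replicates. The yucasin effect was lower at Day 6 than at Day 4 for 23 members and higher for 1, HIS1-3 (2.09), beside 9.13% and 15.1% of all genes. All 5 H3.1 genes were among the 23, with differences of -1.24 to -2.19 that held without each library in turn. For AT5G65360 the difference was -1.28 (adjusted p = 0.00154). The MB-3 effect was lower at Day 6 for 1 member, HTB1, and higher for 0 by edgeR (1 at an unadjusted p under 0.05), beside 0.604% and 3.49% of all genes. DESeq2 called 6 in all, 1 of them higher.

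At Day 4 in replicates 9 to 11 the control was again compared with Day 0. In this second experiment 18 members were higher and 0 lower by edgeR and DESeq2 (4 lower at an unadjusted p under 0.05 with no fold limit), beside 24.0% and 11.1% of all genes, and all 5 H3.1 genes rose, by 3.21 to 4.17. AT5G65360 was at 5.74, 3.17 and 2.09 CPM at Day 0 and at 57.0, 28.5 and 30.3 CPM at Day 4 (adjusted p = 1.34e-04), while AT4G40040 was at 277, 285 and 245 CPM and at 226, 222 and 255 CPM. AT1G06760 rose from 29.6, 16.0 and 14.8 CPM to 159, 101 and 107 CPM (2.60), and AT2G30620 from 24.0, 14.0 and 12.6 CPM to 87.6, 61.8 and 62.0 CPM (2.06). Replicate 9 was the highest of the 3 for most of these genes in both groups.

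Without 2,4-D the Day 4 cultures had 10 members higher and 0 lower than Day 0 by edgeR, beside 16.9% and 6.15% of all genes. DESeq2 also gave 0 lower, and 2 were lower at an unadjusted p under 0.05 with no fold limit. The count of 10 became 5 without replicate 10 or without replicate 11. Against the Day 4 control 0 were higher by edgeR (1 by DESeq2, 2 at an unadjusted p under 0.05) and 5 lower, beside 10.1% and 12.2% of all genes. These were AT3G45930 of H4 (-1.06), AT3G27360 (-0.83) and AT5G10390 (-2.12) of H3.1, HTA3 (-1.53) and HTB2 (-1.21). The same-numbered replicates deviated together (correlations 0.251 to 0.54), and with the replicate number as a block 18 members were called, 17 lower and 1 higher, beside 16.4% and 16.2% of all genes. Without replicate 9 the count was 23, and without replicate 10 or 11 it was 0. These fits left out the block. They therefore cannot separate dependence on single libraries from the shared deviation of the replicate numbers.

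AT5G65360 stood at 28.5, 13.2 and 10.5 CPM without 2,4-D, the highest of which met the lowest control library (-1.14, adjusted p = 0.0771), and within each replicate number it was below the control (-1.21 with the block, adjusted p = 0.00331). The ratio of H3.1 to H3.3 was -2.82, -4.15 and -3.86 without 2,4-D and -1.35, -2.17 and -2.32 in the control. With the block all 5 H3.1 genes were called lower, and AT2G37470 was the member called higher (0.73). HTA5, at 41.4, 38.8 and 28.2 CPM against 71.8, 47.2 and 46.7 CPM in the control, was also called lower with the block (-0.61). AT1G06760, at 121, 106 and 80.5 CPM, and AT2G30620, at 61.3, 53.7 and 55.3 CPM, were not called with or without it. HIS1-3 was at 12.7, 18.0 and 15.8 CPM against 5.49, 14.8 and 8.40 CPM, higher in each pair (0.72, adjusted p = 0.181).

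The effect of omitting 2,4-D was set against that of yucasin at Day 4, each relative to the control of its own experiment. It was higher for 4 members and lower for 0 by edgeR, by DESeq2 and at an unadjusted p under 0.05, beside 6.65% and 5.43% of all genes. These were HTA7 (0.97), HTB1 (0.87), AT2G37470 (1.16) and HTB11 (0.76), none of which held without each library in turn, and the H3.1 genes differed by -0.01 to -0.93 without a call. HTA7 stood at 26.9, 46.9 and 43.8 CPM without 2,4-D and at 32.7, 30.5 and 27.5 CPM in its control.

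Protoplast isolation was examined by comparing Day 0 with leaf. Of the members 7 were higher and 4 lower, beside 11.7% and 22.4% of all genes, and on total counts 4 were higher and 11 lower, beside 5.54% and 37.8%. HTA1 (2.68), HTA10 (2.21) and HTA13 (3.88) of H2A, AT2G37470 (3.18), AT3G53650 (3.58) and AT3G09480 (4.28) of H2B and AT5G10980 of H3.3 (2.54 ± 0.21) were higher. AT5G10390 of H3.1 (-2.41 ± 0.55), HTA2 (-2.16), AT2G28720 (-2.80) and HIS1-3 (-5.54 ± 0.62) were lower. The calls of HTA10 and HTA2 were lost without replicate 3 and that of AT5G10390 without replicate 1 or 2.

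HIS1-3 had the widest difference, with 41.9, 52.5 and 84.8 CPM in leaf and 1.02, 2.41 and 0.303 CPM at Day 0 (adjusted p = 4.64e-06). AT2G37470 stood at 9.73, 14.5 and 30.7 CPM in leaf and at 135, 155 and 208 CPM at Day 0. HTA10 rose from 16.6, 18.6 and 18.0 CPM to 73.2, 66.7 and 107 CPM. No library overlapped in these 3 genes.

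The H3.1 genes had log2 fold changes of -0.44 to -2.41, with 1 of the 5 called. AT5G65360 was at 17.4, 23.4 and 16.8 CPM in leaf and at 5.86, 6.96 and 5.76 CPM at Day 0, and the ratio of H3.1 to H3.3 fell by 2.2 on the log2 scale. Of the other genes shown by library AT4G40040 was at 241, 258 and 381 CPM in leaf and at 494, 415 and 345 CPM at Day 0, which overlapped. AT3G53730 went from 21.2, 24.2 and 33.3 CPM to 54.3, 73.1 and 63.4 CPM, HTA9 from 78.9, 76.3 and 123 CPM to 204, 162 and 170.4 CPM, and HTA5 from 31.5, 40.0 and 45.0 CPM to 66.8, 70.4 and 76.4 CPM, each without overlap and under 4-fold. Total-count scaling moved the median of all genes by -1.03 in this comparison, close to the size of the HTA9 and HTA5 rises, so these depend on the scaling. The marker genes of leaf cell types fell at the same step. Summed mesophyll markers were 25917 to 62809 CPM in leaf and 2019 to 5376 CPM at Day 0, and epidermis markers were 395 to 653 CPM and 2.14 to 4.24 CPM. Their part in the histone results was not tested.

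After 14 days the control had 14 members higher and 1 lower than Day 0, beside 20.5% and 13.5% of all genes. All 5 H3.1 genes were higher, by 2.89 to 4.31, and AT5G65360 stood at 75.9, 62.6 and 71.9 CPM. The member called lower was AT2G37470 (-2.39). AT4G40040 was at 303, 277 and 251 CPM, below Day 0 in every library, HTA9 stood at 52.1, 46.6 and 47.1 CPM (-1.88, under 4-fold), and AT1G06760 stood at 383, 302 and 275 CPM (2.89). HTR12 had 128 counts at Day 14 and 2 at Day 0, a ratio of 15 (95% counting interval 4.06 to 125).

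With MB-3 for 14 days 10 members were higher than Day 0 and 2 lower, beside 18.4% and 13.8% of all genes, or 20 and 0 on total counts (36.0% and 5.61% of all genes). Against the Day 14 control 1 was higher and 18 lower, beside 10.4% and 11.3%, and 6 of the 19 calls held without each library. The count was 6 without replicate 1, 9 without replicate 2 and 12 without replicate 3. AT5G65360 was at 32.9, 52.5 and 60.9 CPM, below all control libraries, and was not called (-0.52), while AT3G27360, AT5G10390 and AT5G10400 were called (-1.39, -1.23 and -1.37).

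At Day 14 both main linker histones were lower with MB-3. AT1G06760 stood at 90.7, 113 and 115 CPM against 383, 302 and 275 CPM in the control (-1.59 ± 0.20, adjusted p = 2.03e-04). AT2G30620 stood at 56.5, 63.3 and 60.7 CPM against 118, 121 and 117 CPM (-0.98 ± 0.21, adjusted p = 0.00523), a call lost without replicate 1. HIS1-3 was the single member higher, at 6.28, 20 and 8.85 CPM against 2.25, 0.989 and 2.22 CPM (2.73 ± 0.50, adjusted p = 0.00223). None of the 3 genes overlapped between the groups. The difference between the Day 14 and Day 6 effects of MB-3 was not tested, as the days belong to separate experiments.

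Genes that work with histones were read from a list of 26 histone chaperones and remodellers. At Day 6, 7 of the 26 were called higher than Day 0, with a median log2 fold change of 0.69, and this count lay near the 27.5% of all genes. The largest rise was that of KNL2, a protein that recruits CENH3, with 0 counts in every Day 0 library and 6.39 to 6.73 CPM at Day 6, at least 72.6-fold higher against a floor of 3 counts over the group. FAS2, a CAF-1 subunit that places H3.1, was called higher (4.64), FAS1 of the same complex differed by 1.07, and HIRA, a chaperone of H3.3, by 0.30. With yucasin at Day 6, 17 of 26 fell, beside 28.8% of all genes, FAS1 by 2.75, FAS2 by 2.39 and the H3.1-specific methyltransferase gene ATXR6 by 3.15 (adjusted p = 2.25e-06), the largest fall. HIRA differed by 0.16 (adjusted p = 0.423). With MB-3 at Day 6, 7 fell, beside 13.2%, ATXR6 the most, by 1.55 (adjusted p = 0.00187).

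The same list was read in the other comparisons. At Day 0, 2 were higher than in leaf, ASF1A the most (2.14), and 1 lower, NRP1 (-3.06), beside 11.7% and 22.4% of all genes. At Day 4, 9 were lower with yucasin, beside 11.8%, and none was called with MB-3 by edgeR, with or without the replicate block. With MB-3 at Day 14, 4 were higher, ASF1B the most (1.21), and 1 lower, ATXR5 (-1.21), beside 10.4% and 11.3%. Without 2,4-D, 11 of 26 were lower than the control, beside 12.2%, and the remodeller DDM1, which acts on heterochromatin, fell most, by 2.68 (adjusted p = 0.00293).

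DNA replication genes were read from a list of 19. At Day 6, 15 of 19 were higher than Day 0, beside 27.5% of all genes, with a median of 4.55. The largest rise was that of MCM3 of the replicative helicase, with 2 counts at Day 0 and 1632 at Day 6, a ratio of 666 (95% counting interval 184 to 5503). With yucasin at Day 6, 18 fell and 1 rose, beside 28.8% and 30.1%, with a median of -2.07. The sliding clamp gene PCNA1 fell most, by 2.97 (adjusted p = 2.08e-08), and the member that rose was RNR2A (0.31, adjusted p = 0.0283). With MB-3 at Day 6, 10 fell, beside 13.2%, PCNA1 by 1.2 (adjusted p = 0.00131). At Day 4 yucasin lowered 16, beside 11.8%, and MB-3 lowered 1, beside 4.55%.

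Summed over the replication list, Day 0 libraries had 86.7 to 100.2 CPM and Day 6 controls 738 to 793 CPM, beside 225 to 296 CPM with yucasin and 488 to 604 CPM with MB-3. The order of these Day 0 and Day 6 groups was that of the H3.1 sum. At Day 14 the list and H3.1 did not go together. The list summed to 421 to 527 CPM in the control and to 458 to 673 CPM with MB-3, while 3 H3.1 genes were called lower with MB-3. Without 2,4-D, 14 of 19 replication genes were lower than the control, beside 12.2% of all genes, PCNA1 by 2.98 (adjusted p = 0.0122). Blocking on replicate gave 15, beside 16.4%, and 17 histones called lower in place of 5. With MB-3 at Day 14, 3 of 19 were higher, beside 10.4%, RNR2A by 0.67 among them.

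Markers of other leaf cell types were read beside the culture results. Over 4 guard cell markers the sum was 9.44 to 17.7 CPM in the Day 6 control, 68.4 to 78.7 CPM with yucasin and 12.6 to 23.5 CPM with MB-3. All 4 were called higher with yucasin, and FAMA and GC1 with MB-3. Over 4 epidermis markers, of which 2 were tested, the sums were 2.90 to 7.06, 47.6 to 109 and 6.76 to 21.6 CPM. Both tested markers, KCS6 and FDH, were called higher with yucasin, and KCS6 with MB-3. In leaf the same sums were 111 to 159 CPM and 395 to 653 CPM.

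The 5 mesophyll markers summed to 570.1 to 840.2 CPM in the Day 6 control, 551 to 932 CPM with yucasin and 391 to 658 CPM with MB-3. Their members differed in direction with yucasin, RBCS1A lower (-1.08) and LHCB1.2 (1.25) and CA1 (1.13) higher, and RBCS1A was lower with MB-3 (-1.16). The vascular sum was almost all SUC2, a phloem sucrose transporter, at 34.5 to 36.4 CPM in the Day 6 control, 9.37 to 24.7 CPM with yucasin (-1.03) and 9.56 to 16.9 CPM with MB-3 (-1.49), both called.

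At Day 4 the guard cell sum was 15.5 to 20.7 CPM in the control, 19.1 to 31.2 CPM with yucasin and 10.2 to 20.6 CPM with MB-3. Its markers went opposite ways with yucasin. FAMA stood at 15.8 to 24.4 CPM against 4.19 to 8.67 CPM in the control, and MYB60 at 1.31 to 3.21 CPM against 4.74 to 14.0 CPM. With MB-3 MYB60 stood at 0.974 to 1.45 CPM. GC1 and KAT1 overlapped the control with both inhibitors, and FAMA did with MB-3. KCS6 (1.56) and FDH (1.83) were higher with yucasin, and SUC2 was lower with MB-3 (-1.88). The mesophyll sum was 682 to 697 CPM in the control, 1080 to 1407 CPM with yucasin and 686 to 897 CPM with MB-3. With yucasin LHCB1.2 (1.41) and LHCB1.3 (1.27) were called higher and CA1 (-1.04) lower, while RBCS1A and RCA were not called. Without 2,4-D the guard cell sum was 36.6 to 60.9 CPM against 14.9 to 34.9 CPM in its control, GC1 was called higher at 7.52 to 11.1 CPM against 1.90 to 4.14 CPM, and SUC2 was called lower at 0 to 0.564 CPM against 3.19 to 11.9 CPM. At Day 14 GC1 was called higher with MB-3, at 10.6 to 20.8 CPM against 1.09 to 2.51 CPM, KAT1 (0 to 0.0884 CPM against 0.104 to 1.21 CPM) and the vascular gene IRX3 (-1.89) were called lower, and SUC2 ranged from 0.698 to 32.0 CPM over the MB-3 libraries. The part of these cell types in the histone differences was not tested.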

How the data were processed

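Raw read counts per splice variant were deposited for 47 libraries, made by the authors with bcl2fastq and Bowtie 0.12.9 on TAIR10 from a stranded mRNA kit. Whether the counting used strand is not given in the sources used here. For each locus the count of the lowest-numbered splice variant was used, and these counts summed to 101.9% to 104.7% of the reads stated as mapped. Symbols, coordinates and sequences came from RefSeq TAIR10.1. The 42 members were taken by gene name without a rule on their values, but this family and the lists of chaperones, replication genes and markers were chosen with earlier results of these data known.

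The 3 experiments were fitted separately with edgeR 4.0.16 (R 4.3.3; limma 3.58.1): filterByExpr, TMM scaling, 1 mean per group, and the quasi-likelihood F test with Benjamini-Hochberg adjustment over the 20205, 19043 or 17665 loci tested, or 19271 in the joint fit of 2,4-D omission and yucasin. Comparisons with Day 0 or leaf were called where the change passed 4-fold with p and adjusted p under 0.01, the thresholds of the study. All others were called at adjusted p under 0.05, so counts under the separate rules are not comparable. By the stricter rule 7 members passed for yucasin against control at Day 6. For MB-3 against control 1 passed at Day 6 and 1 at Day 14. The script was tested on simulated data. CPM used TMM library sizes. Ratios against groups with at most 3 counts in each library carry an exact 95% counting interval.

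Values in every library are given for the member of each class with the highest mean CPM over the 47 libraries and for each H1 gene, other members are given by range and counts, and for the chaperone and replication lists the largest rise and fall among called genes are named. Alternatives were DESeq2 1.42.0, total-count scaling, no filter, summed splice variants, the replicate number as a block, and leaving out each replicate without the block. Tables used pandas 2.3.3, numpy 2.4.6, scipy 1.17.1 and biopython 1.88. In 6 of 18 comparisons every same-numbered pair of libraries deviated together (correlations 0.139 to 0.54): yucasin and MB-3 against control at Day 4, MB-3 against control at Day 6, MB-3 against yucasin at both days, and omission of 2,4-D. There the blocked value is printed where it changes a count by over 1.5 times.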

Additional observations from a re-analysis of the deposited data

Results flagged for a closer look

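Among the 25 values tested for a library standing apart in a group of 5, all of Day 0 in replicates 4 to 8, chance alone marks about 1 in 20. Day 0 replicate 4 was the lowest and stood apart for HTA9 (60.1 CPM), AT5G65360 (3.38 CPM), HTA7 (21.3 CPM) and the summed H2A.Z level (61.3 CPM). These 4 values come from 1 library and are not independent of each other.

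The effect of yucasin differed between Day 6 and Day 4, which shared only replicate 6, by the interaction term, for 24 members. The differences on the log2 scale were -1.28 for AT5G65360, -0.85 for HTA5, -0.63 for HTB4 and 2.09 for HIS1-3. The effect of MB-3 differed between those days for 1 member, HTB1, which was not called without each library in turn. The effect of omitting 2,4-D differed from that of yucasin at Day 4 for 4 members, HTA7 among them (0.97), and the latter comparison spans separate experiments.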

How the results depend on the processing

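Of 879 values of single members, total-count scaling ended 17 calls, added 115 and turned 1, AT5G10980 with yucasin at Day 6, to -0.16. The replicate block ended 7 and added 38, DESeq2 3 and 30, no filter 6 and 6, and summed splice variants 6 and 4. On total counts the members called numbered 15 for Day 0 against leaf (4 higher and 11 lower, where 5.54% and 37.8% of all genes were called and their median moved by -1.03), 20 for Day 14 MB-3 and 17 for Day 2 against Day 0, 9 for MB-3 against yucasin at Day 4, 2 for the day difference of MB-3, 18 for omission of 2,4-D against Day 0, 15 against its control and 1 against the yucasin effect. DESeq2 called 2 members with MB-3 at Day 4, 6 for MB-3 against yucasin at Day 4, 6 for the day difference of MB-3 and 9 for omission of 2,4-D. Blocking on replicate number, these 4 counts were 2, 7, 5 and 18, and 8 for omission of 2,4-D against the yucasin effect, and no other count moved by over 1.5 times. Leaving out each replicate gave 6 to 12 calls for MB-3 at Day 14, 6 to 15 for Day 6 against Day 4, 6 to 14 for yucasin at Day 4, 15 to 26 for MB-3 at Day 6, 0 to 2 for MB-3 against yucasin at Day 4 (1, and lower, without replicate 5), 0 to 5 for the day difference of MB-3, 5 to 11 for omission of 2,4-D against Day 0, 0 to 23 against its control and 1 to 12 against the yucasin effect. The ratio of H3.1 to H3.3 in Day 0 against leaf ranged from -2.6 to -1.89. The causes were not tested. Members near the floor, HTR12 above all, are limited by depth.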
